A study of Homo sapiens with 18 samples.

Results

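The comparison described here is the response to thyroid hormone of HepG2 cells that carry no introduced receptor. HepG2 is an established human line from a hepatocellular carcinoma. The cells are a pool of 11 clones stably transfected with the empty expression plasmid, kept for 6 h on 100 nM triiodothyronine (T3, the active hormone) or on ethanol as the vehicle, both in medium whose 10% serum had been stripped of hormone. The members are the 3 arrays on T3 and the 3 arrays on vehicle, chosen by their titles, out of 18 arrays in the series, and all 20546 array features that carry a gene symbol. The other 12 arrays hold the same 2 treatments, 3 arrays each, in a pool of 6 clones transfected with thyroid hormone receptor TRα1 and a pool of 12 clones transfected with TRβ1. All 3 pools went through G418 selection, and each is a single pool of clones, so that the introduced receptor and the makeup of a pool cannot be told apart. Each group had 3 independent biological repeats. Arrays with the same repeat number were set against each other as pairs.

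Thyroid hormone acts through the nuclear receptors TRα and TRβ, encoded by THRA and THRB, which sit on DNA as partners of the retinoid X receptors (RXR). Without hormone they can hold genes down through corepressors, and T3 exchanges these for coactivators. In liver the hormone is known for its action on lipid and glucose metabolism. A cell with no introduced receptor has only the receptors it makes itself, and whether the responses below run through them was not tested.

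On T3, 20 of the 20546 features rose and none fell at an adjusted p under 0.05 (limma with the repeat number as a block, Benjamini-Hochberg over all 20546 features). This is 0.0973% of the features for higher and 0% for lower values. HEG1, COQ10A and TP53INP2 rose the most, by more than 1 on the log2 scale, followed by the coagulation gene F13B, the epithelial sodium channel gene SCNN1A and the death ligand gene TNFSF10. All 20 were higher on T3 in 3 of 3 pairs, and for 19 of them the 3 values on T3 lay above the 3 values on vehicle. Over all features, 13.1% were higher in 3 of 3 pairs and 2.18% were separated in that way. Before adjustment, 545 features (2.65%) were higher and 677 (3.3%) lower at p under 0.05, 5.95% in all. The count rested on pooling the spread over the 18 arrays and on the pairing: 2 features (0.00973%) passed without the repeat block, and with the 6 arrays of the pool alone (2 residual degrees of freedom) 0 passed in limma, where 1470 (7.15%) had an unadjusted p under 0.05. Leaving out any single array of the pool left between 3 and 9 features higher, with HEG1, COQ10A and TP53INP2 among them each time. F13B, TNFSF10, FYN, HIF1A, PHLDB2, SEMA7A and PLCXD1 passed in 0 of these 6 fits. HIVEP2 passed in 2 of them, and SCNN1A, TNS4, ZNF563, CYP3A5, LGALS8, ARSB, LIN7A and ACSS3 in 1 each.

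**Figure D1:**
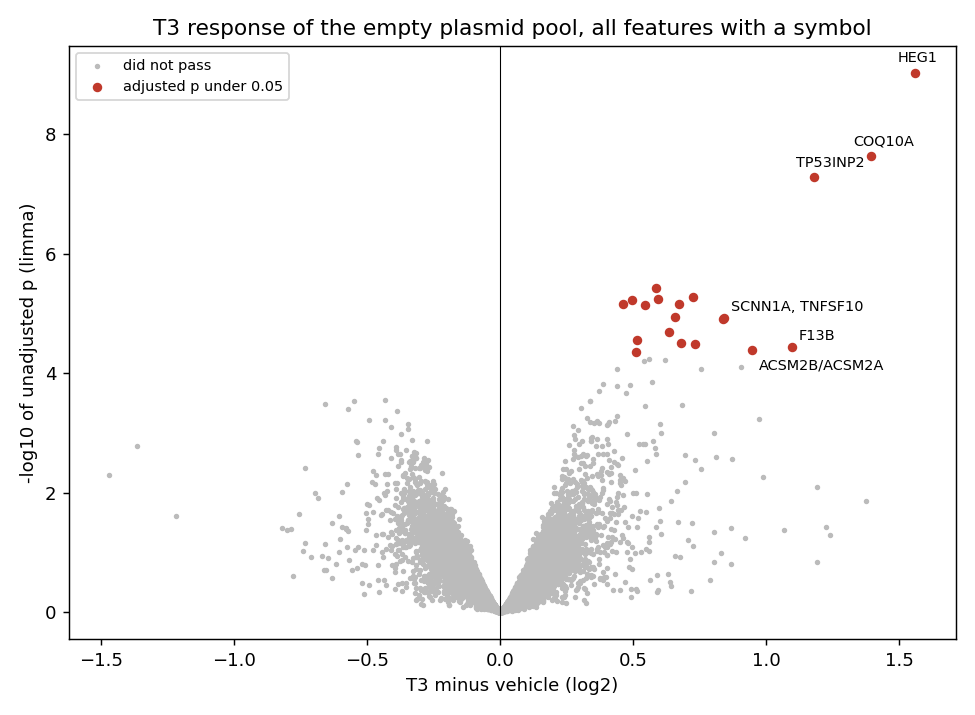
Each point is 1 of the 20546 features with a gene symbol, with the fitted log2 difference of T3 minus vehicle in the empty plasmid pool on the x axis and the -log10 of its unadjusted p on the y axis. The 20 red features passed at an adjusted p under 0.05 and all lie right of 0, with HEG1, COQ10A and TP53INP2 apart from the others at the upper right.

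The start regions of 4 of the genes that rose are shown here because T3 receptors bind DNA at hexamers built on GGTCA. HEG1, COQ10A and TP53INP2 rose the most, and CYP3A5 was added after the matches were seen, as the 1 called gene whose region held a full AGGTCA. Each run covers 250 bases before to 50 bases after the start of the gene, in RefSeq on GRCh38.p14, 5′ to 3′ on the strand of the gene. Capitals mark a GGTCA core, or TGACC where the core lies on the other strand. HEG1 is at chr3:125055948-125056247 (minus strand), COQ10A at chr12:56266692-56266991 (plus strand), TP53INP2 at chr20:34704094-34704393 (plus strand) and CYP3A5 at chr7:99679947-99680246 (minus strand).
HEG1: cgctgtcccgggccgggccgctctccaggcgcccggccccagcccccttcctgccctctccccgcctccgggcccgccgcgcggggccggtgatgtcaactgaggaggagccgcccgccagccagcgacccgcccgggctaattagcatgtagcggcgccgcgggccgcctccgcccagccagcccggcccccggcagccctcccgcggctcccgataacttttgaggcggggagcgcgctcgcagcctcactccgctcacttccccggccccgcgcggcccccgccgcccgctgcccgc
COQ10A: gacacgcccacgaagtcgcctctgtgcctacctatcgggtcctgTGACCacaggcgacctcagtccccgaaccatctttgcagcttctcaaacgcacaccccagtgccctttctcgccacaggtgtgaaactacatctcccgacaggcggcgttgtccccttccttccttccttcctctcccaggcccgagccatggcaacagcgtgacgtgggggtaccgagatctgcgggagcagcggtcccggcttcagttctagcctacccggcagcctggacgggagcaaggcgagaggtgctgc
TP53INP2: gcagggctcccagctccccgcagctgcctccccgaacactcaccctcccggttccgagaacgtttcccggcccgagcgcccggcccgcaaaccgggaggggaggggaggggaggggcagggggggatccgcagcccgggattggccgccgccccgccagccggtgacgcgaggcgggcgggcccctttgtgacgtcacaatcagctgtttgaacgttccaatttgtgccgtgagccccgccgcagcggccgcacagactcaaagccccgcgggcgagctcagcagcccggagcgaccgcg
CYP3A5: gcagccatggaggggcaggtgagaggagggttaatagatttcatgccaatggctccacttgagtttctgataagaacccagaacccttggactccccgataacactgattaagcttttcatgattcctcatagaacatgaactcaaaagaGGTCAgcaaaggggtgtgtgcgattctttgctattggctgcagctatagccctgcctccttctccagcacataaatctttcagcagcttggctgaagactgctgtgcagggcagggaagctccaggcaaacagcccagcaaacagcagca
COQ10A held 1 core, starting 206 bases before the start of the gene, and CYP3A5 held 1, at 100 bases before it, as part of a full AGGTCA. HEG1 and TP53INP2 held none in this window. Of the 19 single genes that rose, 16 had a start region in the table, and GGTCA on either strand was present in 7 of them (43.8%), against 37.7% of all 27305 start regions. The hexamer AGGTCA was present in 1 of the 16 (6.25%), against 13.9% of all, and counts towards GGTCA too. The direct repeat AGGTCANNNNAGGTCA, spaced by 4 bases, was found in 0 of the 16 and in 5 of all start regions (0.0183%). These are matches of letters in a short window and say nothing about where a receptor binds.

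HEG1 encodes a transmembrane protein known for its part in endothelial cell junctions and heart development, where it binds the protein KRIT1. Its log2 level was 8.11, 8.65 and 8.69 in repeats 1, 2 and 3 on T3, against 6.79, 7.05 and 6.92 on vehicle. The lowest value on T3 lay more than 1 log2 unit above the highest on vehicle. The difference was 1.56 ± 0.12 (SE of the fit, n = 3 per group), a 2.95-fold change, with an adjusted p of 1.9e-05 in limma. COQ10A, a mitochondrial protein that binds coenzyme Q, stood at 7.85, 7.39 and 7.67 on T3 and at 6.45, 6.20 and 6.07 on vehicle. Again the groups did not overlap, and the difference of 1.39 ± 0.13 was a 2.63-fold change (adjusted p = 2.4e-04 in limma).

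TP53INP2 encodes a protein of autophagy that is also known as a coactivator of thyroid hormone receptors. Its level was 8.36, 8.77 and 8.48 on T3, against 7.20, 7.51 and 7.35 on vehicle. All 3 values on T3 were higher than any on vehicle, and the difference was 1.18 ± 0.12, a 2.27-fold change (adjusted p = 3.6e-04 in limma). The related gene TP53INP1 differed by 0.26 and did not pass. Of the 29 genes measured in the autophagy and lysosome list, TP53INP2 was the 1 that passed. The list does not hold the lysosomal sulfatase gene ARSB, which also rose. In the list, 8 genes were higher in 3 of 3 pairs (27.6%, against 13.1% of all single genes). Its median difference was 0.03, against -0.01 over all 18404 genes. COQ10A was likewise the 1 called gene of 13 genes of coenzyme Q synthesis and binding, whose median difference was -0.01, and HEG1 the 1 of 11 genes grouped with it as junction partners, whose median was 0.00. Over all 18404 single genes, 19 passed. These lists were chosen with earlier results of these data known, so a called member in each is no result about the list.

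F13B encodes the B subunit of coagulation factor XIII, the carrier of the clot-stabilising enzyme. Its level was low, at 5.02, 4.71 and 4.79 on T3, against 3.99, 3.73 and 3.52 on vehicle. The groups stood apart by more than 0.7, with a difference of 1.10 ± 0.19, a 2.14-fold change (adjusted p = 0.041 in limma). It was the single gene of 28 in coagulation and fibrinolysis that passed, against 19 of all 18404 single genes. That list was chosen with earlier results of these data known. The fibrinogen chains FGG (0.35 ± 0.10), FGA (0.34 ± 0.08) and FGB (0.21 ± 0.11), and the thrombin inhibitor gene SERPIND1 (0.23 ± 0.07), were higher in 3 of 3 pairs without passing. FGA had a level of 11.9 ± 0.03 (SD, n = 3) on T3 and 11.5 ± 0.01 on vehicle. In the list as a whole, 9 genes were higher in 3 of 3 pairs (32.1%, against 13.1% of all single genes) and the median was 0.03. The 2 lower in 3 of 3 pairs were KLKB1, which encodes plasma prekallikrein (-0.31 ± 0.10), and F12, which encodes coagulation factor XII (-0.23 ± 0.08), and neither passed.

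SCNN1A, the α subunit of the epithelial sodium channel, stood at 6.95, 6.81 and 6.51 on T3, against 5.97, 5.95 and 5.82 on vehicle. Every value on T3 exceeded every value on vehicle, by 0.84 ± 0.13 on average, a 1.79-fold change (adjusted p = 0.019 in limma). The other subunit genes SCNN1B (-0.11), SCNN1D (-0.03) and SCNN1G (-0.01) did not pass. SGK1, a kinase known to raise the activity of the channel, and the related SGK2 had higher values without passing: 0.62 ± 0.11 for SGK2 (adjusted p = 0.056) and 0.57 ± 0.11 for SGK1 (adjusted p = 0.105). SGK2 was at 8.08, 8.43 and 8.33 on T3 and at 7.51, 7.70 and 7.78 on vehicle, with no overlap. HSD11B2, which inactivates cortisol, differed by 0.55 ± 0.14 and the sodium pump subunit gene ATP1B1 by 0.20 ± 0.08. Of the 14 genes measured in epithelial sodium transport and the SGK1 axis, 1 passed, against 19 of all 18404 single genes. In that list, 5 were higher in 3 of 3 pairs (35.7%, against 13.1% of all single genes). The median difference was 0.10, the highest of 30 lists. The list was chosen with earlier results of these data known, so its rank is no independent result.

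TNFSF10 encodes TRAIL, a ligand that can trigger cell death. It stood at 6.46, 6.40 and 6.31 on T3, against 5.79, 5.55 and 5.32 on vehicle, with no overlap and a difference of 0.84 ± 0.13 (adjusted p = 0.019 in limma). CYP3A5, a cytochrome P450 that oxidises drugs and steroids, was at 5.59, 5.71 and 5.25 on T3 and at 4.78, 5.05 and 4.71 on vehicle. Repeat 3 was the lowest in both groups, and the groups stayed apart, by 0.67 ± 0.10 (adjusted p = 0.015 in limma). CYP3A4, a close relative, differed by -0.11 ± 0.16 at a low level. The glutathione transferases GSTA2 (0.81 ± 0.22) and GSTA1 (0.61 ± 0.28) had higher values in 3 of 3 pairs with larger errors and did not pass. In xenobiotic and steroid metabolism, CYP3A5 was the 1 of 24 genes that passed, against 19 of all 18404 single genes. In that list, 5 were higher in 3 of 3 pairs (20.8%, against 13.1% of all single genes). The list was chosen with earlier results of these data known.

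Among signalling and adhesion genes, FYN, a Src family kinase, had close repeats. It stood at 7.45, 7.40 and 7.44 on T3, against 6.80, 6.77 and 6.82 on vehicle, a difference of 0.64 ± 0.10 (adjusted p = 0.029 in limma). None of the other 10 Src family and related genes passed, and 5 of the 11 (45.5%) were lower in 3 of 3 pairs, against 16.2% of all single genes, among them BLK (-0.24) and LCK (-0.17). The list had a median of -0.05 and 1 called gene, against 19 of all 18404 single genes. It was chosen with earlier results of these data known. TNS4, a tensin of cell adhesions, rose by 0.73 ± 0.12. PHLDB2, which anchors microtubules at the cell cortex, rose by 0.66 ± 0.10. SEMA7A, a membrane-bound semaphorin, LGALS8, which encodes galectin-8, and LIN7A, a scaffold of cell polarity, rose by 0.52 ± 0.09, 0.59 ± 0.09 and 0.54 ± 0.08.

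The transcription factor genes in the set were HIVEP2, ZNF563 and HIF1A. HIVEP2, a zinc finger factor, was at 5.99, 6.44 and 6.18 on T3 and at 5.44, 5.44 and 5.55 on vehicle, a difference of 0.72 ± 0.10 (adjusted p = 0.015 in limma). ZNF563, another zinc finger gene, rose by 0.68 ± 0.12. Its 3 pairs were uneven: repeat 1 stood at 6.43 on T3 and 6.10 on vehicle, repeat 2 at 6.18 on T3 and 5.22 on vehicle, and repeat 3 at 6.16 on T3 and 5.41 on vehicle. HIF1A, the oxygen-regulated subunit of hypoxia-inducible factor, was at 9.72, 9.95 and 10.01 on T3, against 9.32, 9.48 and 9.34 on vehicle, with no overlap (0.51 ± 0.09, adjusted p = 0.044 in limma).

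The remaining genes that rose belong to acyl-CoA metabolism and the lysosome, with 1 further gene. A feature shared by ACSM2B and ACSM2A, near-identical mitochondrial medium-chain acyl-CoA synthetases whose signals it cannot separate, stood at 7.99, 7.59 and 7.52 on T3 and at 7.15, 6.50 and 6.61 on vehicle. The difference was 0.95 ± 0.16 (adjusted p = 0.044 in limma). ACSS3, a mitochondrial short-chain acyl-CoA synthetase, rose by 0.49 ± 0.07 and ARSB, a lysosomal sulfatase, by 0.58 ± 0.08 (adjusted p = 0.015 in limma for each). PLCXD1 rose by 0.46 ± 0.07 and was the 1 called gene whose groups overlapped, at 8.90, 9.27 and 9.38 on T3, against 8.49, 8.74 and 8.94 on vehicle. A second, dimmer PLCXD1 feature differed by -0.05 ± 0.32.

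**Figure D2:**
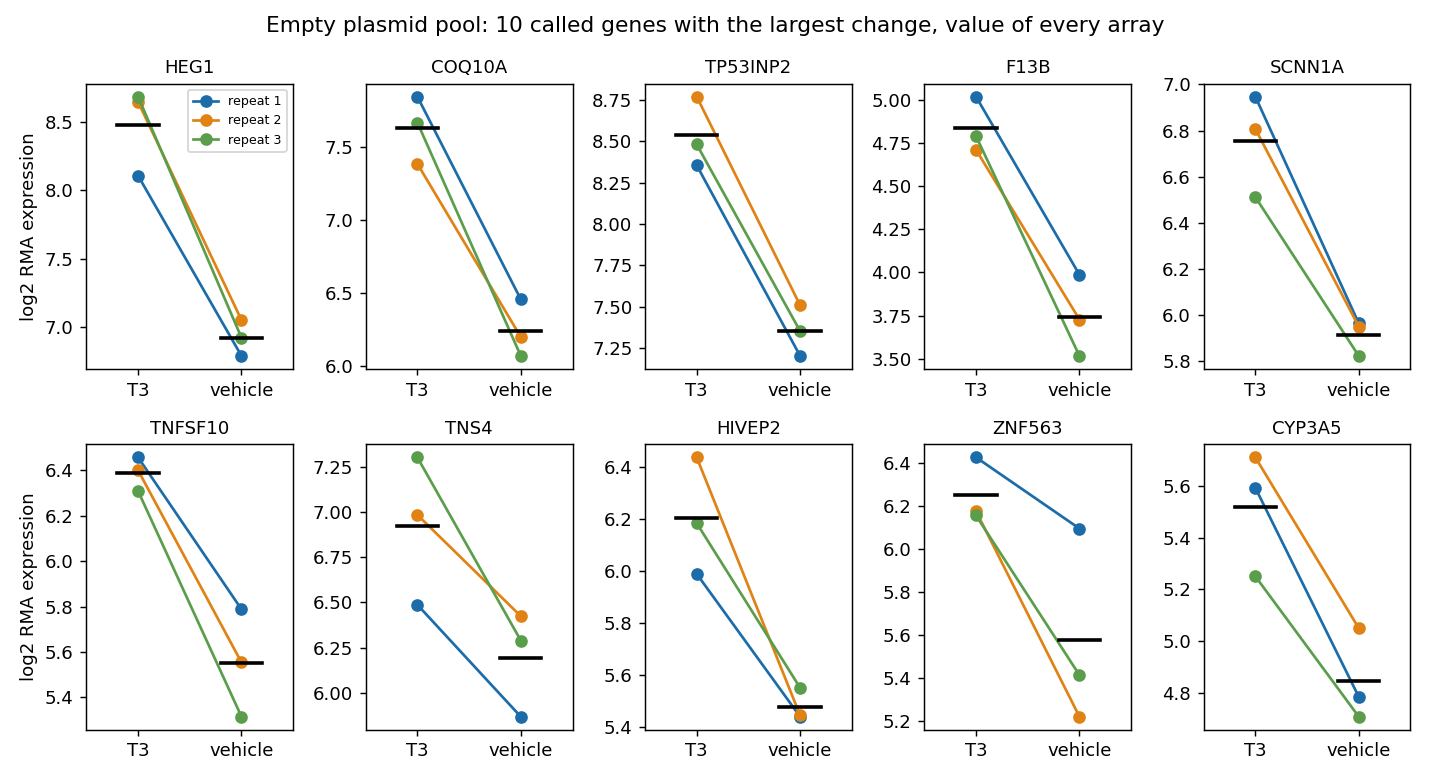
Log2 expression (y axis, a separate scale per gene) of the 10 single genes that rose by the most, with T3 left and vehicle right in each panel. Points are arrays, lines join arrays of the same repeat, and black bars are the means of 3 arrays; all 30 lines slope down from T3 to vehicle, and in each of the 10 genes the T3 points lie above the vehicle points.

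Genes just outside the threshold were, in order of p, CPT1A, SGK2, MPV17L, RCAN3, ICOSLG, SGK1, LEO1, RAB11FIP4, RASSF4 and USP30, with differences between 0.37 and 0.76. CPT1A, which joins long-chain fatty acids to carnitine for entry into mitochondria and is a textbook T3 target, was at 6.76, 7.28 and 7.09 on T3 and at 6.39, 6.61 and 6.45 on vehicle. The groups did not overlap, and the difference of 0.56 ± 0.10 had an adjusted p of 0.056 in limma. ICOSLG, the ligand of the T cell costimulator ICOS, differed by 0.76 ± 0.14 (adjusted p = 0.068). HIF1A, with an adjusted p of 0.044, was just inside. Size alone did not decide a call: 10 features (0.0487%) differed by more than 1 and 3 (0.0146%) by less than -1, and 4 of these 13 passed, all higher.

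No gene passed with a lower value. Taking each gene by its brightest single-gene feature, the lower ones with the smallest p were MAJIN (-0.43 ± 0.09, adjusted p = 0.168), ARHGAP40 (-0.57 ± 0.13), SMIM23, OR8G5, ZNF717, CC2D2B, SLC2A1, PTPRE, TOX3 and SOCS7. MAJIN, OR8G5 and CC2D2B had levels under 4 in all 6 arrays, and a second CC2D2B feature had a difference of 0.48. Among features not taken by that rule, the dimmer of the LINC01140 features, at -0.55, had a smaller p than ARHGAP40 and did not pass. SLC2A1, the glucose transporter GLUT1, stood at 10.86, 10.85 and 10.98 on T3, against 11.17, 11.19 and 11.38 on vehicle. The groups were apart in the lower direction, as in 3.97% of all features, and the difference of -0.35 ± 0.08 had an adjusted p of 0.296 in limma.

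The receptor genes themselves were measured in every array. THRA stood at 7.08, 6.77 and 7.18 on T3 and at 6.95, 7.04 and 7.19 on vehicle, with overlapping groups and a difference of -0.05 ± 0.13. THRB stood at 6.90, 7.12 and 7.20 on T3, against 6.41, 6.90 and 6.63 on vehicle. Its lowest value on T3 was barely above its highest on vehicle, and the difference of 0.43 ± 0.11 (95% interval 0.18 to 0.67) had an unadjusted p of 0.0020 and an adjusted p of 0.43 in limma. RXRA was lower in 3 of 3 pairs, with a difference of -0.19 ± 0.08, and did not pass. RXRB (-0.06 ± 0.13) and RXRG (-0.17 ± 0.12) did not pass either. None of the 15 corepressor and coactivator genes passed: NCOA1 differed by 0.15, NCOA2 by 0.15 and PPARGC1A, which encodes PGC-1α, by -0.29 ± 0.08. DIO1, the deiodinase that makes T3 from its precursor and a T3 target in liver, differed by 0.34 ± 0.09 (adjusted p = 0.355), higher in 3 of 3 pairs, among 15 transport and deiodination genes of which 0 passed.

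Of 33 textbook T3 target genes measured, 0 passed in either direction, 9 were higher in 3 of 3 pairs (27.3%, against 13.1% of all single genes) and 5 lower (15.2%, against 16.2%), and the median difference was 0.03, against -0.01. Such a share was not particular to this list. Among other lists with 0 called genes, it was 35.3% in cholesterol synthesis and uptake and 34.4% in cell cycle, but 3.45% in glycolysis and glucose transport. Besides CPT1A, THRB and DIO1, the higher ones included the gluconeogenic enzyme gene G6PC1 (0.36 ± 0.17) and the clock-related transcription factors DBP (0.29 ± 0.09) and NR1D1 (0.26 ± 0.08). G6PC1 was at 5.39, 6.03 and 5.67 on T3 and at 5.27, 5.55 and 5.19 on vehicle, so that the groups overlapped. The lipogenic targets THRSP (0.04 ± 0.11), ME1 (-0.05 ± 0.11), FASN (-0.02 ± 0.07) and ACACA (0.06 ± 0.14), the gluconeogenic PCK1 (0.08 ± 0.19) and the transcription factor KLF9 (0.04 ± 0.11) were near 0, and ME1 had a level under 3 in both groups. HR, another known target, differed by -0.04 ± 0.10.

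Further lists of liver functions had no called gene. In acute phase and complement, 11 of 29 genes were higher in 3 of 3 pairs (37.9%, against 13.1% of all single genes). They were led by the lectin gene MBL2 (0.68 ± 0.15, adjusted p = 0.187 in limma) and the iron hormone gene HAMP (0.42 ± 0.12). Among apolipoproteins and lipoprotein handling, APOC1 differed by 0.58 ± 0.15 and APOA5 by 0.33 ± 0.12, with 4 of 17 genes higher in 3 of 3 pairs (23.5%). In fatty acid and triglyceride synthesis, MLXIPL, the glucose-responsive factor ChREBP, differed by 0.48. The PAR bZIP gene HLF differed by 0.30, and 6 of 18 circadian genes were higher in 3 of 3 pairs (33.3%). Of 20 gluconeogenesis and glycogen genes, 6 were higher in 3 of 3 pairs (30%, against 13.1% of all single genes) and 4 lower (20%, against 16.2%), with the branching enzyme GBE1 at 0.33 ± 0.13. The lowest list medians were those of the interferon response (-0.08 over 20 genes), with OAS1 at -0.33 ± 0.09 and IRF1 at 0.39, of immediate early and MAPK feedback genes (-0.07 over 20), of the 5 receptor genes above (-0.06) and of the IGF and insulin axis (-0.06 over 17).

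Of 13 HepG2 and hepatocyte markers, 8 were higher in 3 of 3 pairs (61.5%, against 13.1% of all single genes) and 0 passed, with differences between -0.01 and 0.21. Their mean levels over all arrays lay between 7.74 and 12.7. Their median signal was 11.8, against 6.17 for all single genes, so the 13.1% does not come from features of like signal. The marker medians were 0.0053, 0.0617 and 0.07 in pairs 1, 2 and 3 of the empty plasmid pool. With receptor added, the median difference of the markers was -0.0158 for TRα1 and -5.04e-06 for TRβ1. Albumin (ALB) stood at 12.9 ± 0.01 (SD, n = 3) on T3 and 12.8 ± 0.06 on vehicle, and α-fetoprotein (AFP) at 12.7 ± 0.06 on T3 and 12.6 ± 0.05 on vehicle. Of 17 stromal, endothelial and blood cell markers, 0 passed and 0 were higher in 3 of 3 pairs. Levels within this list were mixed. Dim in both groups were, among others, PTPRC at 2.39 on T3 and 2.41 on vehicle, DCN at 2.63 on T3 and 2.62 on vehicle, and PECAM1 at 4.30 on T3 and 4.30 on vehicle. In RNA of a whole culture, fewer cells of a type and less RNA per cell cannot be told apart. LYZ, CD68 and ACTA2, of the same list, were bright in both groups, and none of the 3 differed by more than 0.08.

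**Figure D3:**
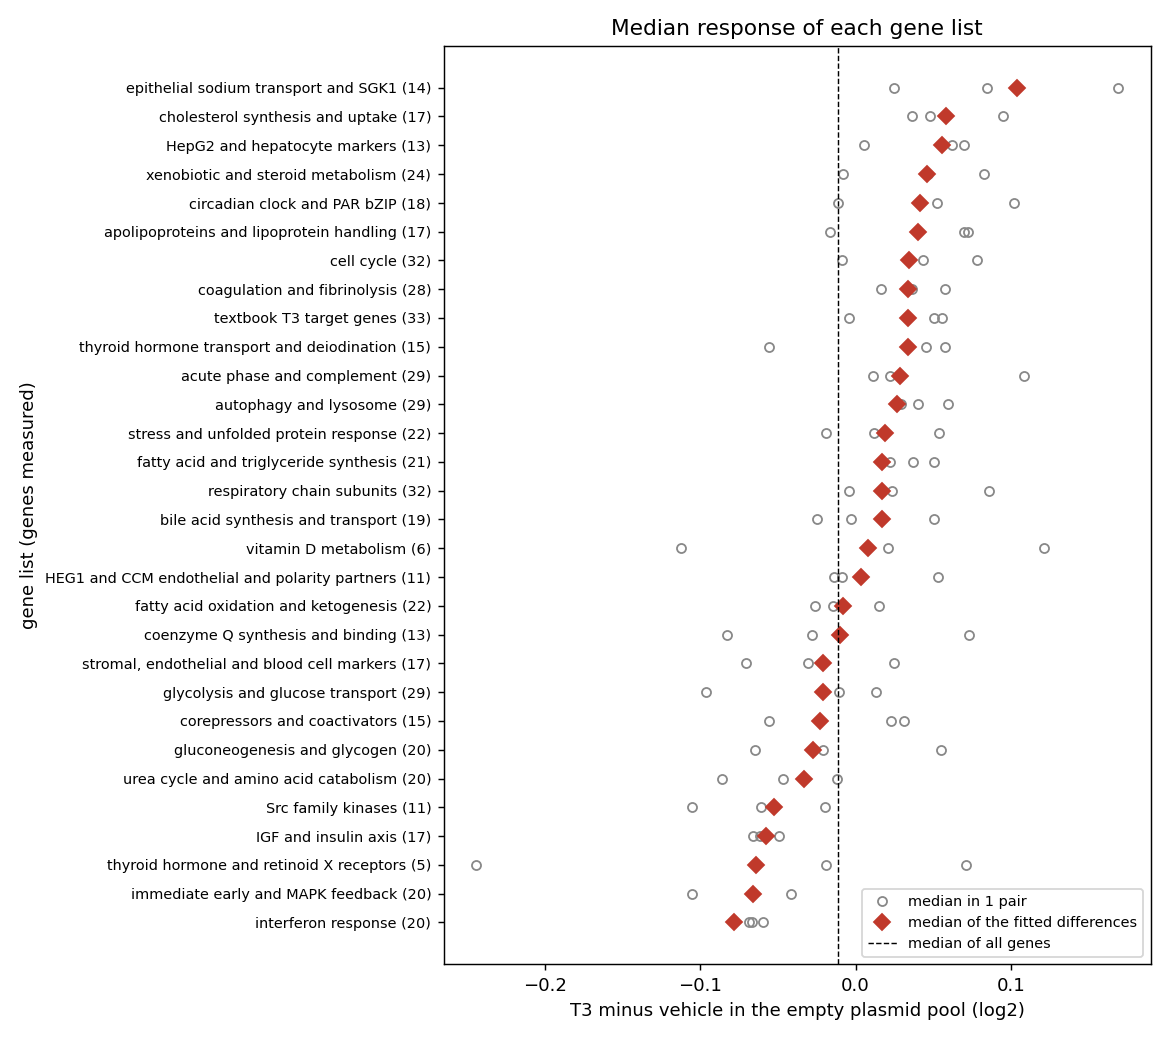
Median log2 difference of T3 minus vehicle in the empty plasmid pool for 30 gene lists, with the number of genes measured in brackets. Red diamonds are medians of the fitted differences, open circles the medians in each of the 3 pairs, and the dashed line the median of all genes (-0.01). Epithelial sodium transport and SGK1 lies highest at 0.10 and the interferon response lowest at -0.08. The lists were chosen with earlier results of these data known.

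The receptor pools give the same comparison with TRα1 or TRβ1 added. They have their own T3 and vehicle arrays, and share the repeats and the estimate of spread with the empty plasmid pool. With TRα1 added, 120 features rose (0.584%) and 17 fell (0.0827%). With TRβ1 added, 83 rose (0.404%) and 15 fell (0.073%). Of the 20 features that rose in the empty plasmid pool, 19 also rose with TRα1 added and 18 with TRβ1 added. The 18 that rose in all 3 pools are 90% of the features called in the empty plasmid pool and 23.7% of the 76 called higher in both receptor pools. F13B and LIN7A were the exceptions: F13B differed by 0.30 with TRα1 added and 0.84 with TRβ1 added and passed in neither, and LIN7A rose by 0.44 with TRα1 added and differed by 0.24 with TRβ1 added. For F13B, the response in the empty plasmid pool minus the mean of both receptor pools was 0.53, with a 95% interval of 0.03 to 1.02, and did not pass over all features.

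The responses of the 3 pools could be set side by side for each called gene. HEG1 rose by 1.56 in the empty plasmid pool, against 1.64 with TRα1 added and 1.73 with TRβ1 added, and the 95% interval of the difference from their mean was -0.43 to 0.18. CYP3A5 rose by 0.67 in the empty plasmid pool, against 0.57 with TRα1 and 0.49 with TRβ1, with an interval of -0.12 to 0.40. COQ10A rose by 1.39 in the empty plasmid pool, against 1.85 with TRα1 and 1.67 with TRβ1, with an interval of -0.71 to -0.03. TP53INP2 rose by 1.18 in the empty plasmid pool, against 1.62 with TRα1 and 1.55 with TRβ1, with an interval of -0.71 to -0.09. None of these 4 differences passed over all features. Over the 20 called features, 15 had a lower estimate in the empty plasmid pool than in the mean of the receptor pools, with a median difference of -0.14.

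**Figure D4:**
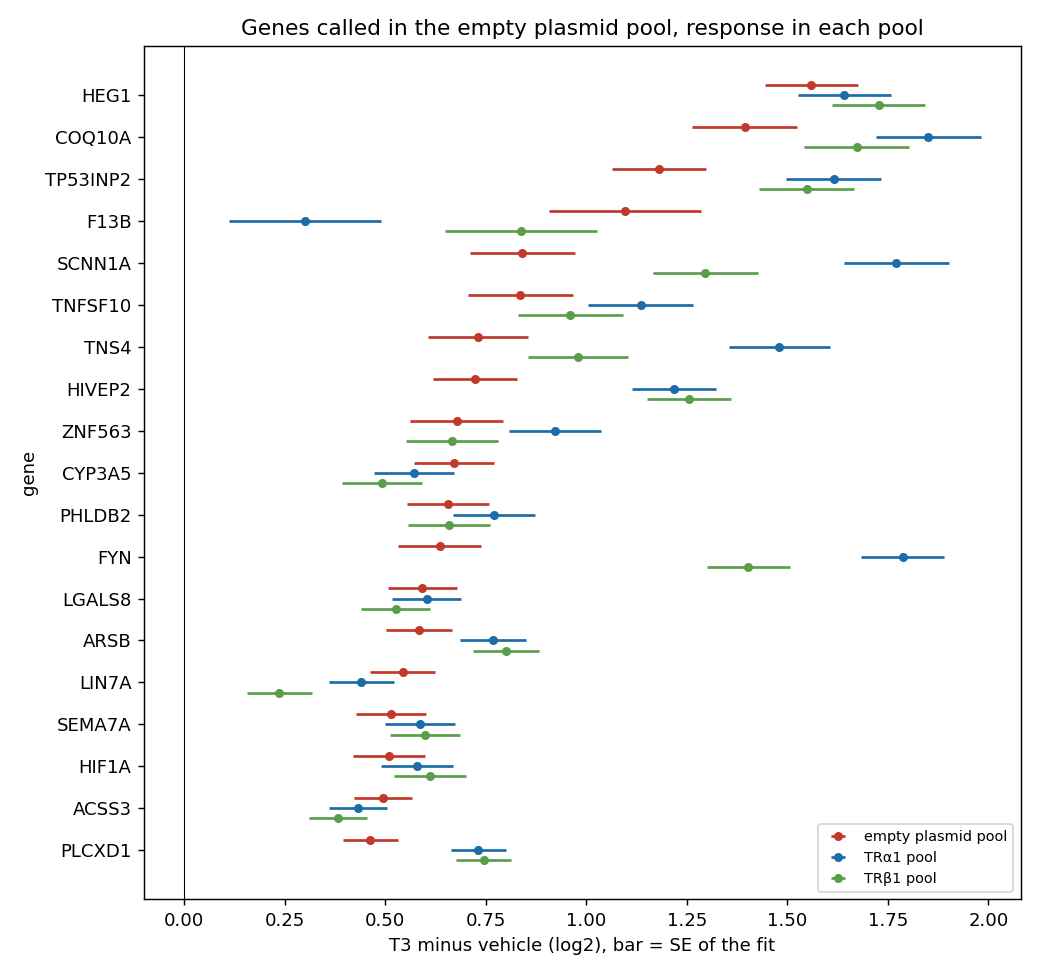
Log2 difference of T3 minus vehicle (x axis, points with the SE of the fit as bars) for the 19 single genes that rose in the empty plasmid pool (red), with the TRα1 pool (blue) and the TRβ1 pool (green) below it in each row. The 3 pools lie close for HEG1, LGALS8, HIF1A and SEMA7A, FYN and SCNN1A lie further right in both receptor pools, and F13B with TRα1 and LIN7A with TRβ1 lie furthest left.

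Tested over all features, 6 responses were lower in the empty plasmid pool than in the mean of both receptor pools (0.0292%) and 0 were higher, where 534 (2.6%) were lower and 339 (1.65%) higher at an unadjusted p under 0.05. These were PTAFR, CYP24A1, ZNF717, FYN, ENG and KCNJ10. The same 6 passed against the TRα1 pool alone, and 0 passed in either direction against the TRβ1 pool alone, where 835 (4.06%) had p under 0.05 before adjustment; these comparisons share the arrays of the empty plasmid pool. PTAFR, the receptor for platelet-activating factor, stood at 5.40, 5.62 and 5.56 on T3 and at 5.48, 5.41 and 5.73 on vehicle in the empty plasmid pool, a difference of -0.01 ± 0.11. In the TRα1 pool it stood at 6.90, 7.08 and 6.88 on T3, against 5.26, 5.78 and 5.77 on vehicle. In the TRβ1 pool it was at 6.14, 6.52 and 6.43 on T3, against 5.09, 5.63 and 5.39 on vehicle. Its groups overlapped in the empty plasmid pool and were apart in both receptor pools, and the difference of the responses was -1.19 ± 0.14 (adjusted p = 0.0081 in limma).

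CYP24A1, which breaks down active vitamin D, was at 7.42, 6.92 and 6.90 on T3 and at 7.05, 6.52 and 6.46 on vehicle in the empty plasmid pool. It was higher in 3 of 3 pairs there, by 0.40 ± 0.15, with overlapping groups. The receptor pools had lower values on vehicle: in the TRα1 pool it was at 7.91, 7.51 and 7.06 on T3, against 6.08, 5.56 and 5.28 on vehicle, and in the TRβ1 pool at 7.22, 7.04 and 6.23 on T3, against 5.12, 5.34 and 4.54 on vehicle. The difference of the responses was -1.44 ± 0.18 (adjusted p = 0.0088 in limma). For FYN, which did rise in the empty plasmid pool, the difference from the receptor pools was -0.96 ± 0.13 (adjusted p = 0.0093 in limma), where it rose by 1.79 with TRα1 added and 1.40 with TRβ1 added.

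ENG, the TGF-β coreceptor endoglin, had a response of -0.06 ± 0.13 in the empty plasmid pool, against 1.35 with TRα1 added and 0.79 with TRβ1 added (difference -1.13 ± 0.16, adjusted p = 0.018 in limma). KCNJ10, a potassium channel gene, had 0.07 ± 0.12 in the empty plasmid pool, against 1.46 with TRα1 and 0.62 with TRβ1 (difference -0.97 ± 0.15, adjusted p = 0.030 in limma). ZNF717, a zinc finger gene, was lower on T3 in 3 of 3 pairs of the empty plasmid pool, at 3.84, 4.06 and 4.41 on T3 and 4.32, 4.32 and 4.70 on vehicle. It rose by 0.66 with TRα1 added and differed by 0.19 with TRβ1 added (difference -0.77 ± 0.10, adjusted p = 0.0088 in limma). PCK1 differed by -1.24 ± 0.23 between the empty plasmid pool and the mean of the receptor pools, with responses of 0.08, 1.02 and 1.63 in the empty plasmid, TRα1 and TRβ1 pools, and did not pass (adjusted p = 0.141). Under other settings ENG passed in 6 of 16 and KCNJ10 in 5 of 16 for this difference, and both were lost with array weights (adjusted p = 0.0968 for ENG and 0.153 for KCNJ10). The nearest to passing in the other direction was CX3CR1, a chemokine receptor gene with levels under 4, at 0.69 ± 0.12 (adjusted p = 0.089).

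The 76 features called higher in both receptor pools were chosen on the T3 minus vehicle differences of those pools, in the fit of all 18 arrays, whose repeat term and estimate of spread also use the arrays of the empty plasmid pool. In that pool 74 of them had a difference above 0, against 46.2% of all features, and 68 (89.5%) were higher in 3 of 3 pairs, against 13.1% of all. Their median difference was 0.37 in the empty plasmid pool, against 0.76 with TRα1 added and 0.73 with TRβ1 added, where the selection raises it. Of the 76, 72 lay below the mean of the receptor pools, a count that the same selection favours. Besides the called genes, the single genes among them with differences above 0.5 were ICOSLG, MBL2, LDLRAD1 (0.60), APOC1, SGK1, CPT1A, HSD11B2, MPV17L (0.54) and TIGD2 (0.53). CD14, an endotoxin coreceptor gene (0.44), SERPINB9, an inhibitor of granzyme B (0.40), and GBE1 were lower, and BCL7A (0.06) and MASP1 (0.07) were near 0. The 9 genes called lower in both receptor pools were SLC2A1, CEMIP, OAS1, TGFBR3, SLC1A4, PCYT1B, ZNF704, JAG1 and ICAM2. All 9 had a difference below 0 in the empty plasmid pool, 8 of them in 3 of 3 pairs, as in 15.9% of all features, and none passed there. Their median was -0.19 in the empty plasmid pool, against -0.41 with TRα1 added and -0.46 with TRβ1 added.

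**Figure D5:**
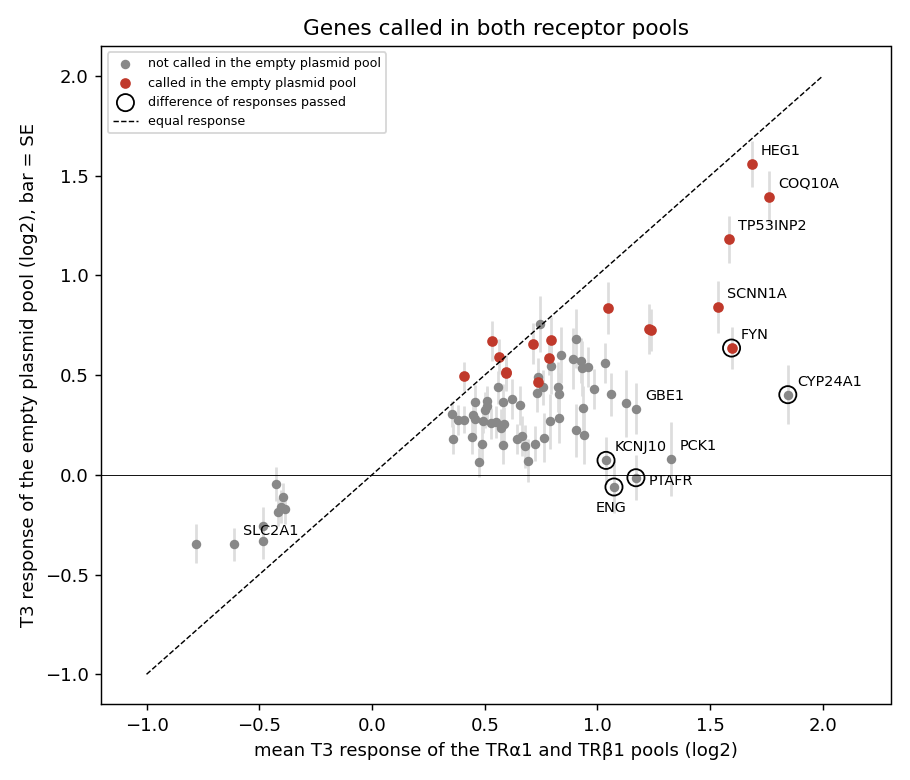
Log2 response to T3 in the empty plasmid pool (y axis, bars are SE) against the mean response of the TRα1 and TRβ1 pools (x axis) for the 74 single genes called higher and 9 called lower in both receptor pools. Most points lie between the line at 0 and the dashed line of equal response; HEG1 lies near that line, and the circled PTAFR, ENG, KCNJ10, CYP24A1 and FYN, whose difference passed, lie far below it. The genes were chosen on the responses of the x axis, which favours larger values there.

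The 3 repeats of the pool were also set against each other. Across the 76 features, the pair differences of the empty plasmid pool correlated at 0.72, 0.67 and 0.79 between repeats 1 and 2, 1 and 3, and 2 and 3. Across all 20546 features the values were -0.03, -0.01 and 0.24. These are descriptions across features, which share arrays and are not independent. Over all features, the 1st and 99th percentiles of the differences were -0.34 and 0.37, and the median was -0.01.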

How the data were processed

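Total RNA (200 ng) of each sample was labelled and hybridised to 1 single-colour Affymetrix Human Gene ST array, and per the submitters' processing notes the deposited log2 expression values were made by RMA in R 2.7.1. There were 32321 features on 18 arrays, with array medians between 5.31 and 5.49; arrays have no read depth, and 3 arrays per group limit the precision. Of these features, 20546 carried a symbol in the platform annotation (19158 with 1 gene, 1388 with several) and 11775 none. The genome build of the array design is not given in the sources used here.

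From these values a linear model with the 6 groups and the repeat number was fitted with limma 3.58.1 in R 4.3.3 (lmFit, eBayes, 10 residual degrees of freedom), with two-sided p-values, adjusted by Benjamini-Hochberg over the 20546 features of each of 6 contrasts, with a threshold of 0.05. The fit was tested on simulated data with independent noise for each feature and array. Such data cannot show how the fit behaves where features share noise. The repeat numbers were read as pairs because all 45 same-numbered pairs of arrays from different groups correlated positively after removal of group means (lowest 0.259, median of different numbers -0.483), and component 1, with 49.2% of the variance, separated repeat 1 from the others. The labels call the repeats independent and do not say more of what they share.

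Named genes were the single-gene features that passed and were changed alike in 3 of 3 pairs, the 10 each way nearest to passing, the receptors, up to 5 members of each of 30 lists by size of change, those called in both receptor pools and those with the smallest p for the difference between pools. Other genes named as list members are given as values only. For a gene with several features the brightest was used. Members, lists and rules were chosen with earlier results of these data known. Of 653 list entries, 589 were measured, 1 through a synonym. Levels of different genes are not compared, since probes differ. Alternatives were another use of the repeat number, the 6 arrays alone, array weights, centring, a filter on dim features, features without a symbol, an intensity trend, and each array or repeat left out.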

Additional observations from a re-analysis of the deposited data

Results flagged for a closer look

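The responses to T3 of 6 genes differed between pools by the test of the difference itself (limma with the repeat block, adjusted over 20546 features). As the response of the empty plasmid pool minus the mean of both receptor pools, these were -1.44 for CYP24A1, -1.19 for PTAFR, -1.13 for ENG, -0.97 for KCNJ10, -0.96 for FYN and -0.77 for ZNF717. Against the TRα1 pool alone the same 6 passed, at -1.46 for CYP24A1, -1.41 for ENG, -1.38 for KCNJ10, -1.37 for PTAFR, -1.15 for FYN and -1.01 for ZNF717. No feature passed in either direction against the TRβ1 pool alone. Under other settings the difference from the mean of both receptor pools passed in 6 of 16 for ENG, 5 of 16 for KCNJ10, 10 of 16 for FYN, 11 of 16 each for CYP24A1 and PTAFR, and 10 of 15 for ZNF717. ENG and KCNJ10 were lost with array weights (adjusted p = 0.0968 for ENG and 0.153 for KCNJ10) and with features without a symbol included (0.0832 for ENG and 0.125 for KCNJ10). Against the TRα1 pool alone, CYP24A1 passed in 7 of 16 and the other 5 in 11 or 12. The introduced receptor and the makeup of each pool of clones cannot be told apart in these values.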

How the results depend on the processing

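The numbers of features passing depended on the processing more than the directions did. The count higher on T3 in the empty plasmid pool, 20 with the repeat block, was 2 with no replicate block (both among the 20), 0 with the 6 arrays of the pool alone, 8 with array weights, 9 with features without a symbol included and 32 with an intensity trend (all 20 among them). Without 1 array of the pool it lay between 3 and 9, and without 1 repeat in all pools between 2 and 3. The count lower was 1 without the vehicle array of repeat 3 and 0 in every other setting. All 19 single genes had a difference above 0 in each setting that measured them, 17 settings at most; HEG1 passed in 16 of these, COQ10A in 15 and TP53INP2 in 13, and the others in 3 to 8. For the response of the empty plasmid pool minus the mean of both receptor pools, the 6 features lower became 0 with no replicate block, between 0 and 7 without 1 array, where 0 came without the vehicle array of repeat 3, and 0 without any repeat; 1 feature was higher with a random block, with centring, with an intensity trend, and without the T3 array of repeat 3 or the vehicle array of repeat 1. Against the TRα1 pool, 6 lower became 0 with no replicate block and 0 without any 1 repeat, and 1 was higher without the vehicle array of repeat 1. Against the TRβ1 pool, 1 was lower with dim features left out, with an intensity trend and without the vehicle array of repeat 2. The responses that did not pass and lay near 0 in the empty plasmid pool changed sign: PTAFR was 0.0109 after centring, and with arrays or repeats left out PTAFR lay between -0.164 and 0.0631, ENG between -0.149 and 0.0273, PCK1 between -0.098 and 0.227 and KCNJ10 between -0.0505 and 0.223. The cause of these changes was not tested. Some fits had fewer arrays, and the family of tests was larger once features without a symbol were included.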

Other observations

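Among the 11775 features without a symbol, which stand in no comparison above, 0 passed when all features were tested together (smallest adjusted p = 0.054 in limma), and 729 (6.19%) reached p under 0.05 before adjustment.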
